A study of Mus musculus with 10 samples.

Results

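The proteasome is the enzyme complex that degrades ubiquitin-tagged proteins in the cytosol and nucleus. Its barrel-shaped core particle is built of outer alpha rings (Psma genes) and inner beta rings (Psmb genes), of which Psmb5, Psmb6 and Psmb7 encode the catalytic subunits of the constitutive form. A regulatory particle made of a base with ATPases (Psmc and some Psmd genes) and a lid (other Psmd genes) recognises, unfolds and feeds in substrates. In neurons the complex works in cell bodies, dendrites and synapses, and its activity is needed for lasting changes of synaptic strength. Described here are all count rows whose symbol starts with Psm, a letter from a to g and a digit, in ribosome-bound RNA of striatal cells that express the dopamine D1 receptor.

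This rule took 50 of 32531 gene rows. They comprised 19 core genes (7 alpha-ring genes Psma1 to Psma7, 7 constitutive beta-ring genes Psmb1 to Psmb7, the immunoproteasome genes Psmb8, Psmb9 and Psmb10, and the tissue-restricted Psma8 and Psmb11) and 26 regulatory genes. The regulatory genes were 6 ATPases, 3 other base subunits, 8 lid subunits, 3 chaperones of base assembly (Psmd5, Psmd9 and Psmd10), 5 rows of activators (Psme) and the inhibitor Psmf1. There were 4 chaperones of core assembly (Psmg1 to Psmg4). The remaining row, Psmc3ip, encodes a factor of meiotic recombination, matches by its symbol alone. It was put in no class and left out of the shares of counts, but it is among the rows counted over the whole rule.

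All mice were of the Drd1-TRAP CP73 line, in which the Drd1 promoter drives an EGFP-tagged ribosomal protein, on a strain background given as FVB/N-Swiss Webster x C57BL/6 after at least 9 generations on C57BL/6. Pull-downs of tagged polysomes from the whole striatum were sequenced in 3 groups of 3 libraries, namely saline self-administration, yoked control and cocaine self-administration, beside 1 input library of total striatal RNA from the same line. The labels give neither the animals' age nor what the yoked mice received. Whether each library stands for its own animal or animals is not stated, and the p-values below therefore measure the spread between these samples only, part or all of which may be technical. Libraries are called by group and number (saline 1, for example). Levels are given in CPM, counts per 1e+06 gene counts of a library.

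The pull-downs held 12.5 to 45.2 times 1e+06 gene counts and the input 40.5, and 3 counts, taken as the detection floor, equalled 0.0663 to 0.239 CPM in the pull-downs. The ribosomal RNA row Rn45s took 10.5% to 20.5% of a pull-down's gene counts. Saline libraries were on lane 3, cocaine on lane 1, yoked on lane 2 and the input on lane 5. An effect of lane cannot be told apart from one of group. D1 marker genes lay at a median of 2.35 times the input, D2 markers at 0.207, astrocyte markers at 0.172, oligodendrocyte markers at 0.167, microglial markers at 0.173 and endothelial and mural markers at 0.258. The 4 markers of cortical glutamatergic neurons went the other way, with a median of 2.03 times the input and library medians from -0.45 to 1.77 on the log2 scale. Yoked 3 stood apart. The log2 deviations of its genes from their means over the 9 pull-downs had an SD of 0.512, against 0.226 to 0.371 in the other libraries.

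Many proteasome genes are controlled by the factor Nfe2l1, whose heterodimers bind an antioxidant-type element written TGACNNNGC. Promoter windows of 300 bases (250 before and 50 after a RefSeq start, build GRCm38.p6) were found for 42 of the 50 genes, with 45 windows in all. The motif, searched on both strands with these letters, stood in 6 of 45 windows (13.3%) against 12.4% of 32851 windows of all genes. The genes were Psmb5, Psmb6, Psmc6, Psmd9, Psmd12 and Psme4. Windows of a core and a regulatory gene with the motif close to the start are shown, chosen after the matches were seen, Psmb5 because it recurs in the comparisons between groups and Psmd9 as a regulatory counterpart. The 250 bases before the start of Psmb5 (chr14:54617996-54618245, minus strand) held it 47 bases before the start, and those before Psmd9 (chr5:123227940-123228189, plus strand) 31 bases before it. Capitals mark the match, which is a description of these letters and not a shown binding site.
Psmb5: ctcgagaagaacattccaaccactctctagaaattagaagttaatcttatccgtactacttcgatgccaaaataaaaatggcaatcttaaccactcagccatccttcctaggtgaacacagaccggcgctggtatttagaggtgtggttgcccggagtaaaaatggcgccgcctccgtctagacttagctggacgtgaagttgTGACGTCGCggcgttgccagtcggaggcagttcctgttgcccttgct
Psmd9: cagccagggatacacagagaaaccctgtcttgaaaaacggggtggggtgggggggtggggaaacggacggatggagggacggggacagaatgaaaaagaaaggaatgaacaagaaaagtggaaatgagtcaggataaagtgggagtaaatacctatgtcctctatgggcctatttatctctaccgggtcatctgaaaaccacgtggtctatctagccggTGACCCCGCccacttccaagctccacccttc

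The first comparison set each pull-down against the input. Proteasome genes, Psmc3ip left out, made up 0.313% ± 0.0205 (SD, n = 9) of all gene counts in a pull-down and 0.164% of those in the input. The excess was carried mostly by the core, with 0.131% in the pull-downs against 0.0467% in the input, while the regulatory genes took 0.176% against 0.115% and the assembly chaperones 0.00597% against 0.00211%. A ratio to the input was taken as (CPM + 0.5) / (input CPM + 0.5) and averaged over the 9 pull-downs on the log2 scale, for the 45 genes with at least 1 CPM on average over the 10 libraries, Psmc3ip among them. Of these, 41 lay above the input in all 9 pull-downs, where 31.9% of 12773 genes did, and 15 lay at least 2-fold above it in all 9, where 3.75% of genes did (40 and 15 of 44 without Psmc3ip). Below the input in all 9 was 1 gene (31.3% of all genes), and 0 were at least 2-fold below it in all 9 (7.46%). With TMM scaling over the 10 libraries the median log2 ratio of all genes was 0.22 instead of 0.03. On that scale 42 of 45 genes were above the input in all 9 pull-downs (42.3% of all genes) and 24 at least 2-fold above it (6.29%). In such bulk RNA fewer cells of a type and less RNA per cell cannot be told apart. With 1 input, the tagged cell type, ribosome binding and lane cannot be told apart either, and there is no test of these ratios.

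**Figure D1:**
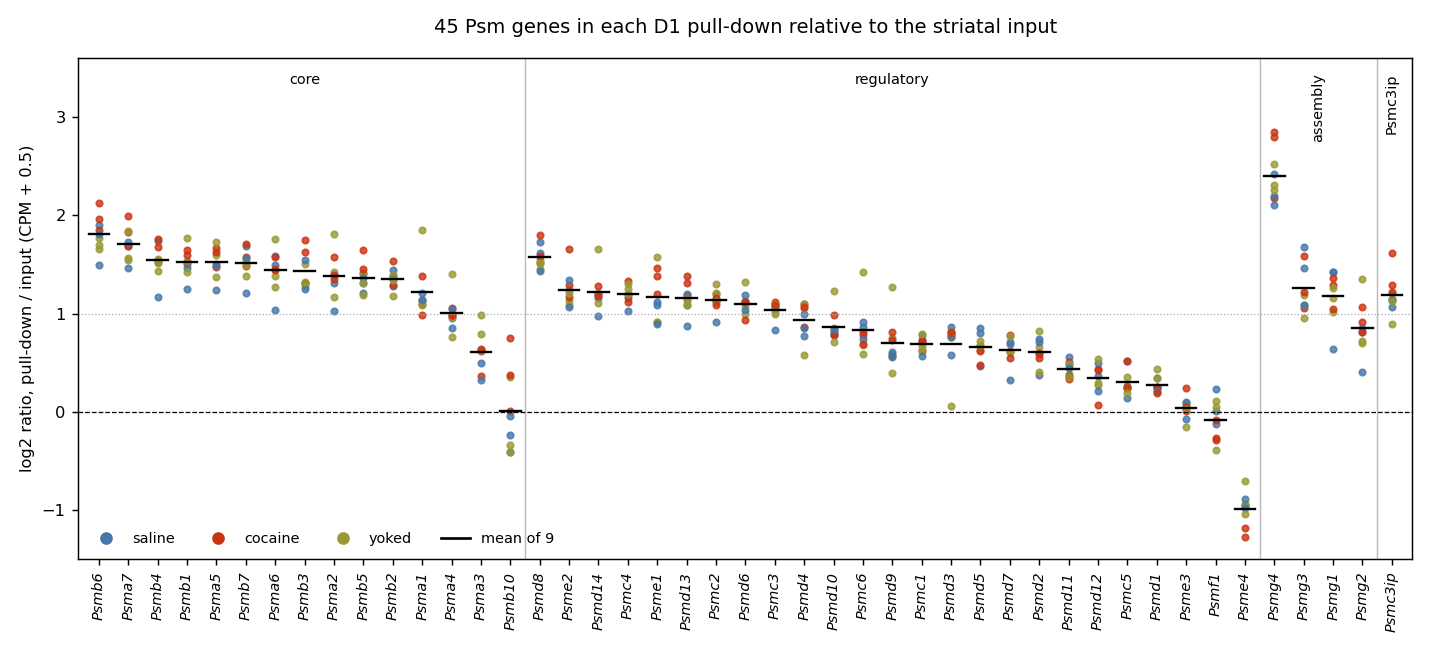
Each point is 1 pull-down's log2 ratio to the striatal input (vertical axis, CPM + 0.5 in both) for 1 of 45 genes (horizontal axis), coloured by group, with a black bar at the mean of 9. The dotted line marks 2-fold; the constitutive beta-ring genes sit above it in all 9 pull-downs, while Psmb10, Psme3 and Psmf1 straddle the input's level (with TMM over 10 libraries Psme3 lies above it in all 9) and Psme4 lies below it.

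The constitutive core had the highest median ratio of the 3 classes. Its median ratio was 2.71-fold over 14 genes, against 1.02-fold over all genes, and all 14 lay above the input in each of the 9 pull-downs. The beta ring had a median of 2.86-fold, and 7 of its 7 genes were at least 2-fold above the input in all 9 pull-downs. The alpha ring had a median of 2.61-fold and 4 of 7 such genes. The alpha-ring genes outside that count were Psma1, Psma3 and Psma4, with mean ratios of 2.34, 1.53 and 2.003.

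Psmb6 (chr11:70525324-70527858) encodes the catalytic beta-ring subunit with caspase-like activity and had the highest ratio of the core, 3.51-fold (2.82 to 4.37 over the pull-downs). Its level was 120, 113 and 90.9 CPM in saline 1 to 3, 116, 141 and 126 in cocaine 1 to 3, 110, 105 and 101 in yoked 1 to 3 and 31.9 in the input. Every pull-down was thus well above the input, with saline 3 lowest and cocaine 2 highest. Psma7, an alpha-ring subunit, followed with 3.26-fold, its pull-downs running from 163 to 236 CPM (median 190) and the input at 58.8. Psmb4, a structural beta subunit, had 2.92-fold, with 121 to 183 CPM (median 158) and 53.5 in the input.

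Psmb2, also of the beta ring, had 2.56-fold with little spread (127 to 163 CPM, input 55.7), and Psma6, of the alpha ring, 2.72-fold with more (98.1 to 162 CPM, input 47.5). Psmb2 was lowest in yoked 2 and highest in cocaine 2, Psma6 lowest in saline 3 and highest in yoked 3. Psma3, the alpha-ring gene with the lowest ratio, was at 5.13 to 8.42 CPM in the pull-downs against 3.998 in the input. Its row overlaps another annotated gene, and reads of the pair cannot be told apart without a stated strand setting.

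The regulatory genes had a lower median ratio. The 17 genes of base and lid, which make up the particle itself, had a median of 1.78-fold, and all 17 lay above the input in each pull-down. With the chaperones of base assembly, the activators and the inhibitor added, the 25 measured regulatory genes had a median of 1.62-fold, 22 lay above the input in all 9 pull-downs and 3 were at least 2-fold above in all 9. These 3 were the ATPase gene Psmc4 (2.29-fold), the lid gene Psmd8 (2.99-fold) and the activator gene Psme2 (2.37-fold). Within each pull-down, the median log2 ratio of the constitutive core exceeded that of the regulatory genes by 0.59 to 0.81, a difference that does not depend on how a library is scaled. The smallest of the 9 differences was that of yoked 2 and the largest that of cocaine 2. Without saline 3, 6 of 25 regulatory genes were at least 2-fold above the input in the other 8 pull-downs, against 4.27% of all genes. Without the libraries numbered 3 it was also 6 of 25 in the 6 pull-downs left (5.27% of all genes), and with TMM over 10 libraries 9 of 25 in all 9 (6.29%). The constitutive core count was 11 of 14, also without saline 3 or yoked 3, and 12 of 14 with TMM over 10 libraries.

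By role, the median was 1.92-fold for the ATPases, which unfold the substrate, 1.86-fold for the lid, 1.62-fold for the chaperones of base assembly and 1.52-fold for the non-ATPase base subunits. Psmd8, a lid subunit, was at 101 to 130 CPM in the pull-downs against 36.9 in the input, so that the lowest pull-down exceeded the input 2.71-fold. At the other end of the lid were Psmd11 (1.35-fold) and Psmd12 (1.27-fold). Psmd7, which pairs with the deubiquitinase Psmd14 in the lid, had 1.55-fold (90.8 to 124 CPM, input 72.4), and Psmd14 itself 2.33-fold (73.2 to 118 CPM, input 36.9). Psmd1, the large scaffold of the base, was near the input in every pull-down, with 117 to 138 CPM against 102 and 1.21-fold. Psmc5, an ATPase of the base, had 141 to 184 CPM against 128 and 1.23-fold, while Psmc2, another, had 82.5 to 108 CPM against 43.6 and 2.21-fold. Subunits that assemble in equal copies therefore differed in their ratio to the input. Psmd2, the other large base scaffold, had 1.52-fold (72.2 to 98.5 CPM, input 55.4). Among the chaperones of base assembly, Psmd5 had 1.58-fold (52.6 to 69.1 CPM, input 38.01) and Psmd10 1.82-fold (27.2 to 39.2 CPM, input 16.5).

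The lowest ratios of the 45 were those of Psme4, Psmf1, Psmb10 and Psme3. Psme4 encodes a large alternative activator of the core and was the gene below the input in all 9 pull-downs, at 0.503-fold. It was at 37.3, 36.5 and 38.9 CPM in the saline libraries, 37.0, 29.6 and 31.8 in the cocaine libraries, 37.8, 35.01 and 44.3 in the yoked libraries and 72.6 in the input. Its row overlaps Erlec1 and a predicted gene. Psme3, the nuclear activator, was at 116 to 153 CPM against 129 in the input (1.03-fold, above it in 7 of 9, and in 9 of 9 with TMM over 10 libraries). Psmf1, an inhibitor that binds the core, was at 21.6 to 33.6 CPM against 28.5, or 0.944-fold and above in 4 of 9, which became 1.08-fold and 6 of 9 with TMM over 10 libraries. Psme1 and Psme2, which form the interferon-inducible activator, stood higher, at 2.26-fold and 2.37-fold, the row of Psme1 overlapping Emc9. Psme2b, a near-identical copy of Psme2, was at 0.311 to 0.882 CPM, and reads may be shared between the pair.

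Immunoproteasome subunits replace the catalytic beta subunits in immune cells and after interferon. Psmb10 (chr8:105935728-105938392) was at 4.79, 6.31 and 5.47 CPM in the saline libraries, 6.54, 8.58 and 11.3 in the cocaine libraries, 8.47, 4.78 and 5.04 in the yoked libraries and 6.52 in the input, a mean of 1.003-fold and above the input in 4 of 9. Its constitutive counterpart Psmb7 had 2.86-fold. Psmb8, the counterpart of Psmb5, had 0.0428 to 0.435 CPM in the pull-downs against 0.592 in the input, or 1 to 14 counts against 24. Psmb9, the counterpart of Psmb6 and a neighbour of Psmb8 on chromosome 17, had 0 to 1.01 CPM and 0.543 in the input. All pull-downs lay below the input for Psmb8, and 7 of 9 for Psmb9. Of the tissue-restricted subunits, the testis form Psma8 had 0 to 2 counts in every library, and the thymus form Psmb11 had 0 to 5 counts in the pull-downs against 0 in the input. Their highest pull-down counts were 2 in yoked 2 and yoked 3 for Psma8 and 5 in cocaine 2 for Psmb11, so that Psma8 was under the floor of 3 counts in each library.

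The chaperones of core assembly had a median of 2.33-fold. At least 2-fold above the input in all 9 pull-downs was 1 of 4 (Psmg4), against 3.75% of all genes. The count was 2 of 4 without saline 3 (4.27% of all genes), without yoked 3 (4.37%) or with TMM over 10 libraries (6.29%). Without the 3 libraries numbered 3 it was 3 of 4 (5.27%). Psmg4, which acts with Psmg3 in building the alpha ring, had the highest ratio of all 45 genes, 5.30-fold (4.31 to 7.21). It was at 19.7, 16.8 and 15.7 CPM in the saline libraries, 16.5, 25.7 and 26.6 in the cocaine libraries, 18.1, 17.5 and 21.2 in the yoked libraries and 3.26 in the input. No pull-down came near the input. Its partner Psmg3 had 2.40-fold (6.81 to 11.5 CPM, input 3.26), with saline 1 highest and yoked 3 lowest. Psmg1 and Psmg2, which form the other chaperone pair, had 2.27-fold (11.97 to 21.1 CPM, input 7.53) and 1.80-fold (9.58 to 18.8 CPM, input 7.08). Saline 3 was the lowest library for both. Psmc3ip had 2.28-fold (10.1 to 17.0 CPM, input 5.23), and its row overlaps the gene Mlx.

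Genes with a short genomic span had higher ratios in general. Over 11737 genes with a span, Spearman's rho of the span with the log2 ratio was -0.36, and over the 45 genes measured here it was -0.23 (-0.22 without Psmc3ip). Both are descriptions across genes of the same libraries. The median span was 10.1 kb for the core, 12.7 kb for the regulatory genes and 25.1 kb for all genes tested. When all genes were split by span into 10 equal bins, the median ratio of the bins that hold these medians was 1.24-fold and 1.14-fold, respectively. The part of span in the proteasome ratios was not tested further.

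Other genes of the ubiquitin-proteasome pathway were described from a list of 40 symbols, of which 36 had rows. Of 35 measured, 20 were above the input in all 9 pull-downs (31.9% of all genes) and 6 below in all 9 (31.3%). At least 2-fold above in all 9 were 2 (3.75% of all genes), and the median was 1.37-fold. With TMM over 10 libraries these counts were 26 (42.3% of all genes), 2 (3038 of 12773 genes) and 4 (6.29%). Pomp, the maturation factor of the core, had 2.44-fold and Shfm1, a small lid subunit, 2.81-fold. The transcription factor Nfe2l1 had 0.879-fold (1.01-fold with TMM over 10 libraries) and its relative Nfe2l2, a stress-response factor, 0.229-fold. AI314180, which encodes a proteasome adaptor and scaffold, had 0.779-fold.

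The second comparison, cocaine against saline self-administration, asked whether ribosome-bound RNA differed with the drug that was self-administered. Every constitutive core gene had a higher mean in the cocaine libraries, but no proteasome gene passed the test. Log2 fold changes come from TMM-scaled counts of all 9 pull-downs, fitted with edgeR (quasi-likelihood test), and p-values were adjusted over 14680 genes by the Benjamini-Hochberg method. The call threshold was an adjusted p under 0.05. With edgeR, 0 of 48 tested rows, Psmc3ip among them, were called, and 0 of 14680 genes (0%). DESeq2 and limma-voom called 0 proteasome genes as well, and over all genes they called 1 and 0. At an unadjusted edgeR p under 0.05 there were 4 of 48 (Psmb10, Psmb9, Psmg4 and Psmb6), against 2.84% of all genes. The adjusted p of each was 0.999. Psmb8 and Psmb9 passed the filter on low counts only through the cocaine and yoked libraries and were not tested when saline was fitted with either group alone. Their differences from saline are therefore not read as a result. Psma8 and Psmb11 did not pass.

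All 14 constitutive core genes had a log2 fold change above 0 in cocaine against saline, where 50.6% of all genes did. Their median was 0.22 (0.06 to 0.30), with a median SE of 0.15, and the median of all genes was 0.00. The regulatory genes were higher in 20 of 26 cases with a median of 0.11, which fell to 18 of 26 and 0.05 without cocaine 2 and to 18 of 26 and 0.06 without saline 3. The assembly chaperones were higher in 3 of 4 with a median of 0.20. Leaving out cocaine 3 left 13 of 14 core genes higher, and leaving out saline 3 left all 14 with a median of 0.14. Without the 3 libraries numbered 3 it was 12 of 14 with a median of 0.11. Without saline 3 the assembly chaperones were higher in 2 of 4, with a median of 0.05. Genes of the span bin that holds the core median had a median of 0.07.

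The core genes tended to deviate together from library to library. The median log2 deviation of 17 tested core genes from their means over the 9 pull-downs was -0.10, -0.04 and -0.26 in saline 1 to 3, -0.03, 0.22 and 0.19 in cocaine 1 to 3 and -0.02, -0.14 and 0.20 in yoked 1 to 3. In saline 3, 0 of 17 were above their mean, and in cocaine 3 all 17 were. Cocaine 1 therefore lay with the saline libraries, and yoked 3 lay with cocaine 2 and 3. The 17 include Psmb8 and Psmb9, which are subject to the limit of the filter given above and do not count as evidence here. The remaining core genes were likewise all not above their means in saline 3 and all above them in cocaine 3. The medians were not taken again without Psmb8 and Psmb9, but the plot of deviations by library leaves both out. Rn45s took 11.4%, 16.9% and 20.5% of gene counts in cocaine 1 to 3 and 10.5% to 14.3% in the saline libraries. With that row left out of the fit, 14 of 14 constitutive core genes were higher in cocaine than in saline libraries, with a median log2 fold change of 0.22. As that fit is TMM-scaled, leaving out 1 row could change little in it, and it does not cover CPM values and shares. A part of Rn45s in the core genes' levels was not tested. As a share of gene counts, proteasome genes took 0.321% ± 0.0147 of the cocaine libraries, 0.313% ± 0.0191 of the yoked and 0.304% ± 0.0296 of the saline libraries (SD, n = 3 each). The ranges of the 3 groups overlapped, at 0.311% to 0.338% (cocaine), 0.297% to 0.334% (yoked) and 0.270% to 0.324% (saline).

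**Figure D2:**
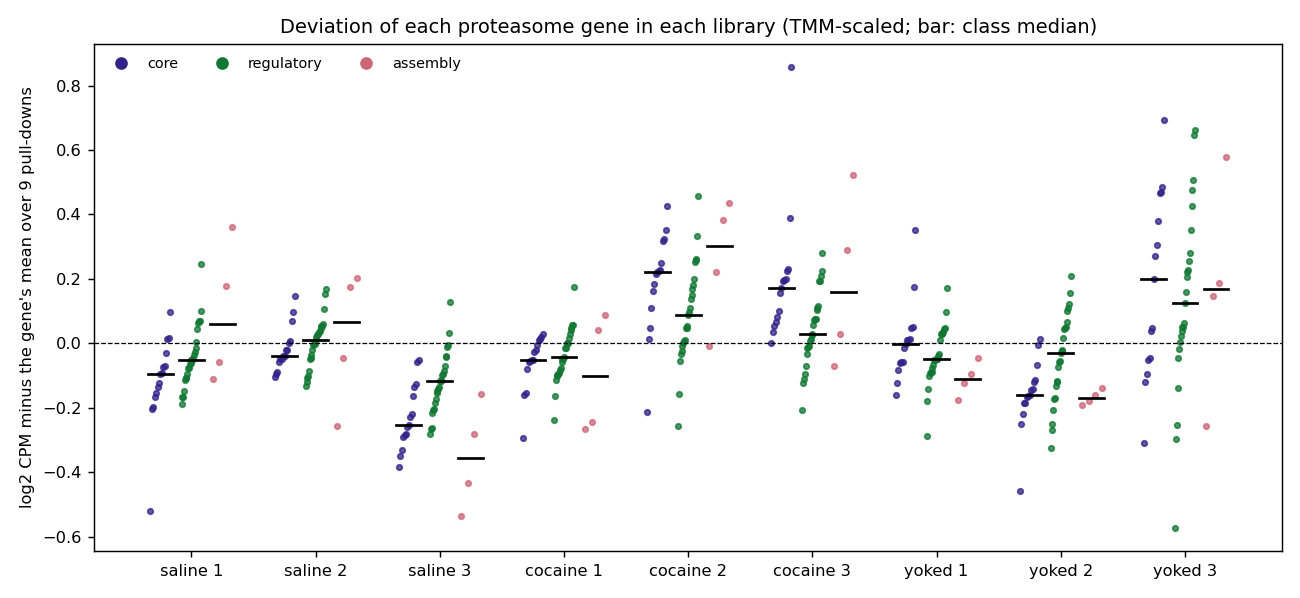
Each point is 1 gene's log2 CPM (TMM-scaled) minus its mean over the 9 pull-downs (vertical axis), by library (horizontal axis) and class, for the 44 genes measured against the input apart from Psmc3ip; black bars are class medians. The core medians are lowest in saline 3 and high in cocaine 2, cocaine 3 and yoked 3, and the points of yoked 3 spread widest.

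Glial markers moved with single libraries too. The 6 astrocyte markers, none at 0 in all pull-downs, summed to 128 to 335 CPM in the saline, 104 to 245 in the cocaine and 127 to 629 in the yoked libraries, against 1952 in the input. The highest sum was that of yoked 2, the yoked library with the lowest core median, while saline 3, with the lowest core median of all, had 128. Between cocaine and saline 3 of 6 astrocyte markers were higher (median 0.01). So were 4 of 7 microglial markers (0.12), 3 of 6 oligodendrocyte markers (0.03) and 3 of 5 D2 markers (0.004). The 4 markers of cortical glutamatergic neurons were all higher, with a median log2 fold change of 0.49 and sums of 64.3 to 95.3 CPM in cocaine and 21.05 to 74.5 in saline libraries. The 5 tested endothelial and mural markers were all lower, with a median of -0.51 and list sums of 1.99 to 4.74 CPM in cocaine and 3.21 to 9.74 in saline libraries. No marker was called. The part of RNA of these other cells in the core genes' levels was not tested.

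Single genes separated cocaine from saline in few cases. Overlap between groups was judged, here and below, in CPM without TMM and with Rn45s in the total. The groups did not overlap, cocaine being higher, for 6 of 48 genes (Psmb5, Psmb9, Psmb10, Psmc3, Psmc3ip and Psme1), against 3.76% of all genes, Psmb9 being subject to the limit of the filter given above, and cocaine was lower without overlap for 0 of 48, against 7.31% of all genes. Psmb10 had a log2 fold change of 0.74 ± 0.28 (SE, unadjusted p = 0.0196, edgeR), with cocaine 1 just above the highest saline library (6.54 against 6.31 CPM) and cocaine 2 and cocaine 3 further above it. Without cocaine 3 the log2 fold change was 0.49. Psme1 had 0.39 ± 0.20, with 28.9, 29.6 and 25.2 CPM in saline 1 to 3 and 31.4, 37.9 and 35.7 in cocaine 1 to 3. Psmc3, an ATPase of the base, was at 53.1, 53.6 and 45.5 CPM in saline 1 to 3 and at 55.7, 54.8 and 54.5 in cocaine 1 to 3. In both genes the lowest cocaine library was close to the highest saline library. Psmg4 had 0.46 ± 0.21 (unadjusted p = 0.0415, edgeR), but its groups overlapped, since cocaine 1 was lower than saline 1 and saline 2. Psmb6 had 0.30 ± 0.13 (unadjusted p = 0.0418, edgeR) and also overlapped. Psmd13, a lid subunit, had 0.30 ± 0.14 (unadjusted p = 0.0531, edgeR), with 31.5, 34.2 and 27.1 CPM in saline, 33.9, 38.8 and 36.9 in cocaine and 32.5, 31.7 and 32.8 in yoked libraries.

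Psmb5 encodes the catalytic subunit with chymotrypsin-like activity. It was at 28.3, 29.5 and 26.4 CPM in saline, 30.4, 36.0 and 31.4 in cocaine and 30.3, 28.3 and 26.0 in yoked libraries, and 11.1 in the input. In CPM the 3 cocaine libraries were above all 6 others, cocaine 1 only just above yoked 1. The order of those 2 libraries depends on Rn45s being in the total (11.4% of cocaine 1, 14.7% of yoked 1) and reverses without it. The log2 fold change against saline, 0.27 ± 0.14, missed the threshold (adjusted p = 0.999, edgeR). On the lower side Psmf1 had -0.20 ± 0.16 and Psme4 -0.14 ± 0.15, with overlapping groups. Adjusted p-values of the genes named by p in the 3 comparisons ran from 0.732 to 1 over all alternatives.

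**Figure D3:**
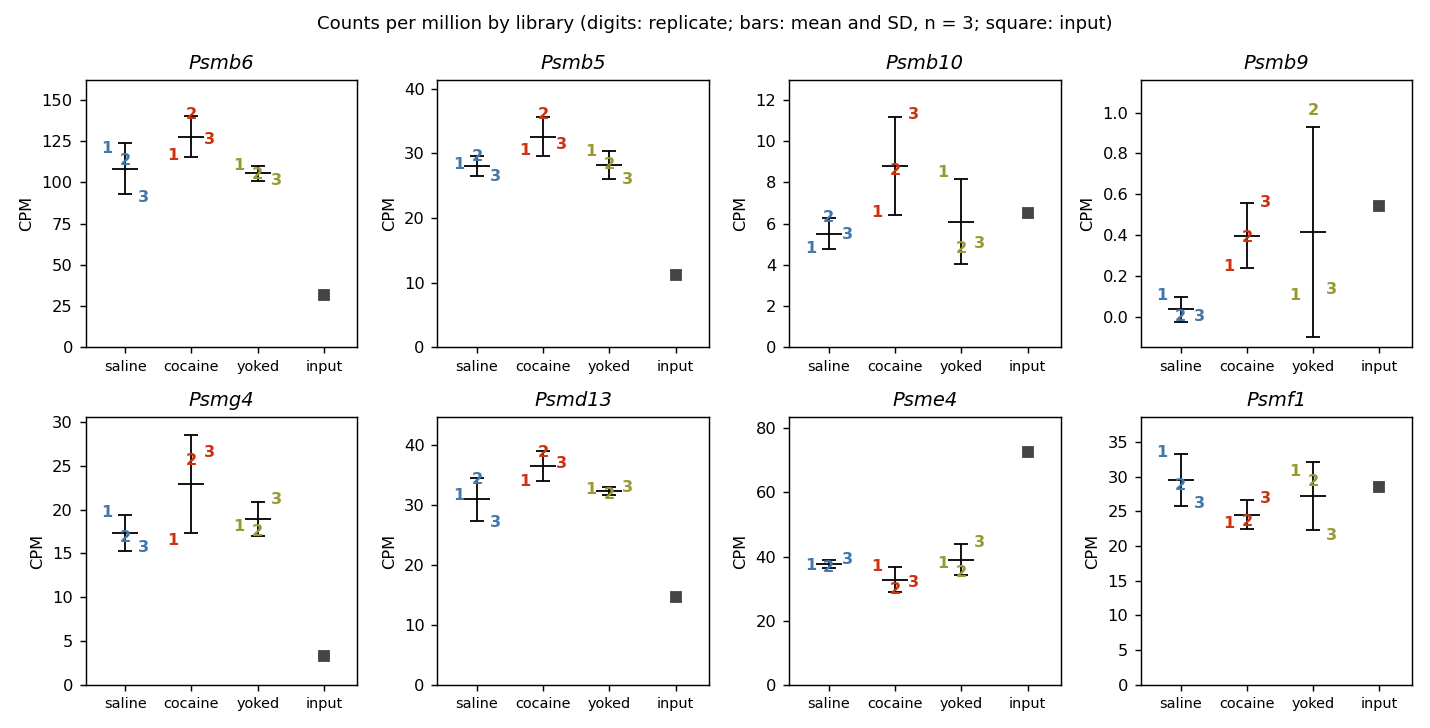
CPM of 8 genes (vertical axes) by group (horizontal axis); digits are replicate numbers, bars mean and SD of 3 libraries, and the square is the input. Cocaine libraries of Psmb5 lie above the other 6 pull-downs, Psme4 lies below its input everywhere, and the yoked mean of Psmb9 rests on yoked 2.

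Psmb8 and Psmb9 had too few counts for firm levels. Psmb9 had 3, 0 and 0 counts in saline 1 to 3, 8, 13 and 18 in cocaine 1 to 3, and 4, 44 and 6 in yoked 1 to 3. Of the yoked counts, most came from yoked 2, and 0 counts in a saline library leave its level under the floor. Psmb8 had 6, 1 and 1 counts in saline 1 to 3, 9, 5 and 14 in cocaine 1 to 3 and 3, 14 and 14 in yoked 1 to 3. These subunits are expressed by microglia, whose 7 marker genes summed to 5.99 to 15.005 CPM in saline, 6.34 to 13.3 in cocaine and 4.71 to 25.9 in yoked libraries and 74.2 in the input, none of them at 0 in all pull-downs. The highest sum was that of yoked 2, the library highest for Psmb9. Cocaine 3, the library highest for Psmb10, had a sum of 6.34. The part of microglial RNA in these levels was not tested.

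The third comparison set cocaine self-administration against the yoked control, and it shares its cocaine libraries with the second. As the labels do not give what the yoked mice received, drug and responding cannot be told apart in it. With edgeR, 0 of 48 tested rows and 0 of 14680 genes (0%) were called, with adjusted p of 0.974 at the least, and DESeq2 and limma-voom also called 0 genes. At an unadjusted p under 0.05 there was 1 of 48, against 2.58% of all genes. This was Psmb6 (log2 fold change 0.29 ± 0.13, unadjusted p = 0.0463, edgeR), whose 3 cocaine libraries were above the 3 yoked ones, 116 CPM in the lowest against 110 in the highest. The constitutive core was higher in 10 of 14 genes, against 45.5% of all genes, with a median of 0.07. It was higher in 7 of 14 with a median of -0.01 without yoked 2, in 8 of 14 with a median of 0.02 without cocaine 2, and in 13 of 14 with a median of 0.18 without yoked 3. The beta ring gave 7 of 7 higher with a median of 0.18, and the alpha ring 3 of 7 with a median of -0.04. Without yoked 3 the alpha ring gave 6 of 7 with a median of 0.18, and without yoked 2 it gave 1 of 7 and a median of -0.18. The beta ring had 6 or 7 of 7 genes higher whichever single library was left out.

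The regulatory genes were higher in cocaine than in yoked libraries in 12 of 26 cases, with a median of -0.02, and without yoked 3 in 19 of 26, with a median of 0.08. The assembly chaperones were higher in 3 of 4, with a median of 0.18, and without cocaine 2 the median was 0.06. Astrocyte and oligodendrocyte markers were lower in cocaine than in yoked libraries in 6 of 6 cases each, with medians of -0.81 and -0.52, and microglial markers in 6 of 7 with a median of -0.50. Endothelial and mural markers were lower in 4 of 5 and cortical glutamatergic ones in 2 of 4. D2 markers were lower in 5 of 5, with a median of -0.36. Yoked 2 had the highest astrocyte, oligodendrocyte and microglial sums of the pull-downs (629, 940 and 25.9 CPM). Those of yoked 3 (127, 183 and 4.71 CPM) lay within or below the cocaine range. No marker was called, and the markers' part in the proteasome values was not tested. Groups did not overlap, cocaine being higher, for 4 of 48 genes (Psmb5, Psmb6, Psmd13 and Psmc3ip), against 2.87% of all genes, and cocaine was lower without overlap for 0 of 48, against 3.6% of all genes. For Psmb5 and Psmd13 the separation rests on Rn45s being in the total. That row took 11.4% of cocaine 1, against 14.7% of yoked 1 and 15.1% of yoked 3. Psmb10 had a log2 fold change of 0.56 ± 0.27 (unadjusted p = 0.0616, edgeR), Psmc3ip 0.33 ± 0.18 (unadjusted p = 0.0882, edgeR), Psme4 -0.24 ± 0.15 (unadjusted p = 0.130, edgeR) and Psmb5 0.22 ± 0.14 (unadjusted p = 0.132, edgeR). These values rested in part on single libraries. Psmb10 had 0.31 without cocaine 3, 0.85 without yoked 1 and 0.21 without the 3 libraries numbered 3. Psme4 had -0.11 without yoked 3, and without cocaine 2 Psmc3ip had 0.19 and Psmb5 0.14. Yoked 1 overlapped the cocaine libraries for Psmb10, and all groups overlapped for Psme4. Psmc3ip was at 13.5, 17.0 and 12.9 CPM in cocaine and 12.8, 10.1 and 12.05 in yoked libraries, so that the lowest cocaine library was only just above the highest yoked one.

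**Figure D4:**
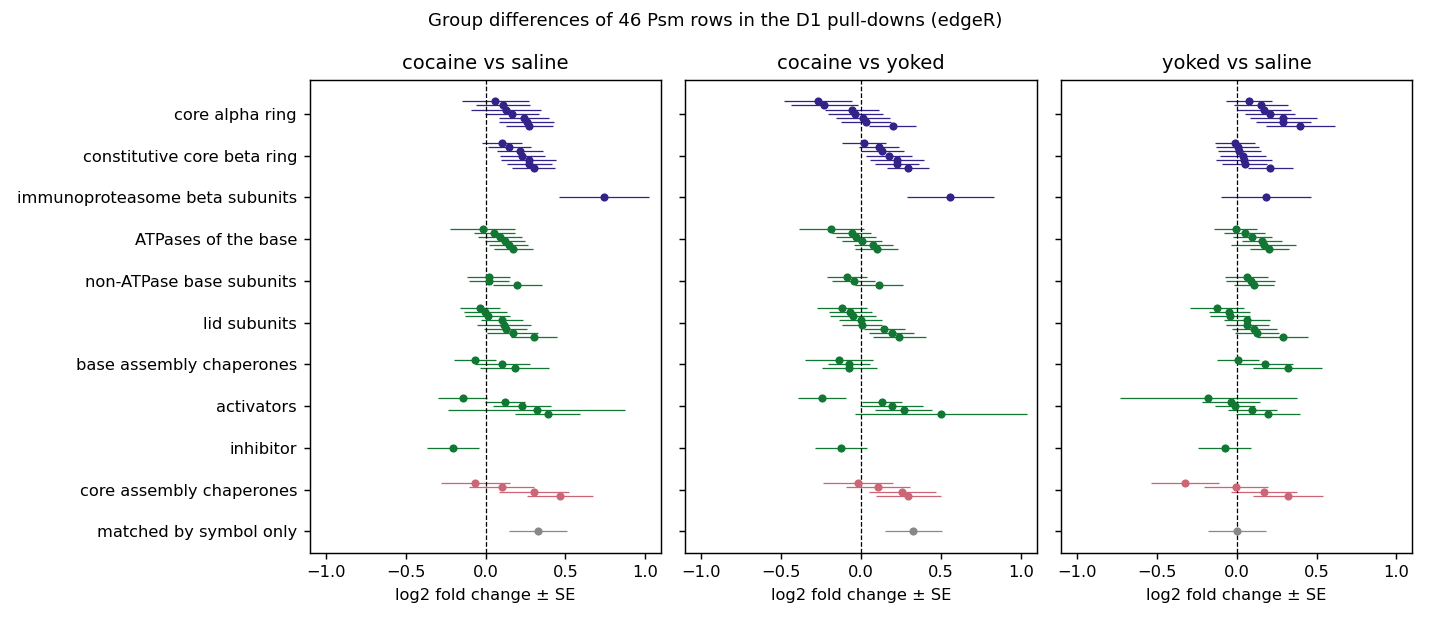
Log2 fold changes with SE from edgeR (horizontal axis) for 46 tested rows by role (vertical axis) in the 3 comparisons; Psmb8 and Psmb9, with few counts, are left out. The core points lie right of 0 in cocaine against saline, while in cocaine against yoked the beta ring lies right of 0 and the alpha ring on both sides.

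The last comparison, yoked against saline, shares its libraries with the other comparisons between groups. With edgeR, 0 of 48 tested rows and 0 of 14680 genes (0%) were called, with adjusted p of 0.999 at the least, and DESeq2 and limma-voom called 0 genes. At an unadjusted p under 0.05 there was 1 of 48 (Psmb9, with the limit of the filter given above), against 1.84% of all genes. No gene had groups that did not overlap, with 0 of 48 in either direction against 2.48% of all genes higher and 4.42% lower. The constitutive core was higher in 13 of 14 genes, against 55% of all genes, with a median of 0.11. Without yoked 3 it was 8 of 14 with a median of 0.03, and without saline 3 it was 10 of 14 with a median of 0.03. Most markers of other cells were higher in yoked libraries too, 6 of 6 for astrocytes (median 0.74), 6 of 6 for oligodendrocytes (0.57), 6 of 7 for microglia (0.57) and 4 of 4 for cortical glutamatergic neurons (0.58). Of the endothelial and mural markers 3 of 5 were higher (0.13), and of the D2 markers 4 of 5 (0.30). The glial sums were high in yoked 2, but in yoked 3 they lay below every saline library. The astrocyte sums were 250, 629 and 127 CPM in yoked 1 to 3 and 191, 335 and 128 in saline 1 to 3. The cortical sum was lowest in yoked 2, at 20.2 CPM. No marker was called, and the markers' part in the proteasome values was not tested. Here the alpha ring was higher in 7 of 7 with a median of 0.21 and, without yoked 3, in 3 of 7 with a median of -0.04. The beta ring had 6 of 7 and a median of 0.04. Without saline 3 it had 3 of 7 and a median of -0.02, and without yoked 1 it had 4 of 7. The regulatory genes were higher in 18 of 26 with a median of 0.08 and, without yoked 3, in 13 of 26 with a median of -0.01. The assembly chaperones were split 2 and 2.

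Apart from Psmb9, the smallest unadjusted p in yoked against saline belonged to Psma3 (log2 fold change 0.40 ± 0.22, unadjusted p = 0.0875, edgeR), Psmd14 (0.29 ± 0.16, unadjusted p = 0.0912), Psma2 (0.29 ± 0.17, unadjusted p = 0.111) and Psmc2 (0.20 ± 0.12, unadjusted p = 0.120). Psma2 was at 105, 111 and 86.4 CPM in saline, 108, 126 and 112 in cocaine and 113, 95.5 and 148 in yoked libraries. Psmd14 was at 84.6, 82.8 and 73.2 CPM in saline, 85.5, 90.5 and 84.1 in cocaine and 85.9, 80.2 and 118 in yoked libraries. For both genes yoked 3 was the highest library and saline 3 the lowest. Psma3 was at 5.84, 6.47 and 5.13 CPM in saline, 5.29, 6.43 and 6.497 in cocaine and 7.30, 6.45 and 8.42 in yoked libraries, so that yoked 2 just overlapped saline 2. Psmc2 was at 95.5, 96.7 and 82.5 CPM in saline, 101, 97.7 and 93.1 in cocaine and 102, 95.99 and 108 in yoked libraries, with yoked 2 again inside the saline range. Without yoked 3 the log2 fold change was 0.27 for Psma3, 0.07 for Psmd14, 0.07 for Psma2 and 0.13 for Psmc2, and without the 3 libraries numbered 3 that of Psma2 was -0.01.

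The spread between pull-downs was moderate for most proteasome genes. The median coefficient of variation over the 9 pull-downs was 10.1% for the regulatory genes, 12.9% for the core and 19.4% for the assembly chaperones, against 17.0% for all genes. The steadiest genes were the ATPase gene Psmc1 (5.23%), Psmd11 (5.44%), Psmc3 (5.87%) and Psmd1 (5.89%). Psmb10, at 32.6%, was the most variable of the 45. In yoked 3, 13 of 45 genes were more than 0.3 log2 above their mean and 2 below by as much, the shares being 28.9% and 4.44% against 27.0% and 24.7% of all genes.

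Of the 36 tested pathway genes, 0 were called by edgeR in any comparison, and none had an unadjusted p under 0.05. In cocaine against saline 23 were higher and 13 lower, with a median log2 fold change of 0.05. Rps27a, a gene of a fusion of ubiquitin with a ribosomal protein, had a log2 fold change of 0.65 ± 0.45 (unadjusted p = 0.173, edgeR). It was near 1 CPM, and its pseudogenes may take part of the reads. The polyubiquitin gene Ubb had 0.28 ± 0.21 (unadjusted p = 0.209, edgeR).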

How the data were processed

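Ribosome-bound RNA of 9 pull-downs and total RNA of 1 input were sequenced. The authors deposited whole-number read counts per gene symbol. The submitters' processing notes name STAR 2.0.0e, HTSeq and mm10. The sources used here give no annotation, strand setting, counting mode or version of HTSeq. The 6 rows that name no gene were left out: of uniquely aligned reads, those in no feature made up 12.3% to 16.1% of a pull-down and 27.6% of the input, and ambiguous ones 2.54% to 3.03% and 6.63%. No replicates agreed within sampling noise (a chi-square of 14.4 to 157 per degree of freedom).

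Groups were compared with edgeR 4.0.16 in R 4.3.3 (robust quasi-likelihood F test, TMM, filterByExpr, group as the only term, common coefficient of variation 23.7%), with Benjamini-Hochberg adjustment over 14680 genes. The SE of a log2 fold change is its size over the root of F. CPM is per library total of gene counts, without TMM. The test was checked on simulated data, in which the changes were larger than the class medians described here. The check therefore does not show how often differences of that size would be called. Ratios to the input used a pseudocount of 0.5 CPM and genes of at least 1 CPM on average (12773). DESeq2 1.42.0, limma 3.58.1 (voom), other scalings and filters, a replicate block and leaving out libraries were alternatives. Leaving out the libraries numbered 3 was added after seeing the data.

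The genes, classes and lists were chosen with earlier results of these data known. Values per library, or their range over the pull-downs, are given for the 2 most abundant genes of each role, the 5 smallest p in each comparison, the 4 highest and 4 lowest ratios to the input, and all immunoproteasome, tissue-restricted and Psmg genes. Other genes appear by range, or with values chosen after they were seen. The values of 1 pathway gene are not reported here. Spans, starts and promoter sequences are from RefSeq (GRCm38.p6), where 14 of the genes overlap another gene and 4 (Psma5, Psmb5, Psmb6 and Psmb7) have pseudogenes named after them, which may share reads.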

Additional observations from a re-analysis of the deposited data

Results flagged for a closer look

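Over the 9 pull-downs, 9 of the 45 genes measured (Psmc3ip included) had a highest or lowest library set off from the rest by more than Dixon's 95% limit of 0.493, given as the gap to the nearest library over the whole range. For independent values chance flags about 1 gene in 20, but the groups are pooled here and the genes share libraries. The share of all genes flagged in this way was not counted, so the 9 are not read as an excess. Yoked 3 deviated over all genes too, with 27.0% of them more than 0.3 log2 above their means and 24.7% below by as much. Yoked 3 was the library in 6 of the 9. It was high for Psma1 (0.535, with 81.1 CPM against 44.1 to 58.6 in the others), Psma4 (0.547, 74.2 against 47.3 to 58.0), the ATPase gene Psmc6 (0.618, 74.1 against 41.3 to 51.6), the deubiquitinase gene Psmd14 (0.554, 118 against 73.2 to 90.5) and the chaperone gene Psmd9 (0.52, 29.6 against 15.9 to 21.4). It was low for the lid gene Psmd3 (0.636, 41.2 against 59.0 to 72.4). Saline 3 was low for the ATPase gene Psmc3 (0.577, 45.5 against 51.1 to 55.7) and the lid gene Psmd7 (0.496, 90.8 against 106 to 124). Cocaine 2 was high for the activator gene Psme2 (0.54, 17.1 against 11.2 to 13.6).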

How the results depend on the processing

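Under 17 alternatives in each comparison, 0 proteasome genes were called by any. Over all genes, 1 was called for cocaine against saline by DESeq2, with the 2 groups alone, with a replicate block and with the libraries numbered 3 left out (0 to 1 when leaving out 1 library), 1 for cocaine against yoked with the replicate block, and 1 for yoked against saline with the replicate block (0 to 1 when leaving out 1 library). Each gene's group mean was subtracted from its log2 CPM, and the deviations left were correlated between libraries. In these deviations, same-numbered libraries of different groups correlated by r of 0.00274 to 0.23, over 0.1 in 6 of 9 pairs. Differently numbered libraries of different groups correlated by r of -0.245 to 0.14, and 5 of 9 libraries correlated best with their own number. What the shared numbers stand for was not tested. The main fit had group as the only term and did not pair samples by number. The block called 0 proteasome genes.

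Leaving out 1 library gave a median log2 fold change of the regulatory genes of -0.0489 to 0.0839 in cocaine against yoked (high without yoked 3) and of -0.00768 to 0.12 in yoked against saline (low without yoked 3). With the libraries numbered 3 left out it was 0.0857 and -0.0248. In yoked against saline the core median was then -0.0132 over 16 tested genes, Psmb9 among them, and -0.046 over the constitutive core. The assembly median was -0.191 and the log2 fold change of Psma2 -0.00502. The cause was not tested. Against the input, TMM over 10 libraries gave a median log2 ratio of 1.62 for the core and 0.895 for the regulatory genes, with that of all genes at 0.22 instead of 0.03, and 24 instead of 15 of the 45 genes at least 2-fold above the input in all 9 pull-downs. Without Rn45s in the total, the proteasome share was 0.366%. Depth limits Psmb8, Psmb9, Psma8 and Psmb11, which had few counts per library.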
